A study of Mus musculus with 12 samples.

Results

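The galectins and the galectin 3 binding protein were followed in the RNA of 4599 cells, a mouse melanoma line. The rows whose symbol is Lgals1, Lgals3, Lgals3bp, Lgals4, Lgals7, Lgals8 or Lgals9 were taken from the deposited gene table, 7 of 56748 genes. These genes were chosen from their own values in the same libraries, so their levels and differences are given as a description, with no p-value. The 12 libraries form 4 groups of 3. Cells labelled TB, PIF and DIF came from different parts of an orthotopic melanoma, a tumour grown in its site of origin, and cells labelled Met came from a lung metastasis. The labels leave TB, PIF and DIF unexplained, and they name no host strain, age, genotype or drug. Before lysis, cells of all 4 groups stood on bovine collagen in fibrils, from dermis, at 1.7 mg/ml, first for 24 h in 10% serum and then for 24 h in 1% serum, so the values describe cultured cells and not tumour tissue. Nothing in the labels says that replicates came from separate animals or cultures, and p-values given for other genes measure only the spread between these libraries, which may be technical.

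Galectins are lectins that bind galactose-containing sugar chains, and they act in the cytosol and nucleus as well as outside the cell, which they reach without a signal peptide. Galectin 1 and galectin 7 are prototype galectins that form dimers, galectin 3 is the chimera type with a flexible tail through which it oligomerises, and galectins 4, 8 and 9 join unlike sugar-binding domains by a linker. Lgals3bp is a secreted glycoprotein of the scavenger receptor family that carries sugar chains bound by galectins. Galectins 1 and 3 are known products of melanoma cells, where they bind integrins, laminin and other glycoproteins of the surface and matrix.

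Expression is given as FPKM, fragments scaled to gene length and to sequencing depth, which sets levels of genes of different length on 1 scale. The libraries held 17.6 M reads on average (15.5 to 18.4 M), and each had reads for 18952 to 19557 genes. The label melanoma was set against 12 melanocyte markers. Sox10, a neural crest and melanocyte transcription factor, stood at 203 to 269 FPKM, while Tyr, which encodes tyrosinase of the pigment pathway, did not exceed 0.0325 FPKM. Defining markers of leukocytes and epithelium were at or near 0: Ptprc reached 0.0186 FPKM at most, Adgre1 was listed at 0 in all 12 libraries, Epcam reached 0.127 FPKM and Krt5 was listed at 0. Sftpc of lung epithelium reached 0.0528 FPKM and Pecam1 of endothelium 0.0441 FPKM. The measurement is of RNA from whole cultures, in which fewer cells of a type and less RNA per cell cannot be told apart.

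Lgals3 had the largest ratio between group means of the 6 members tested: it was highest in PIF, high in TB and low in DIF and Met, at 491 ± 43.1, 315 ± 7.16, 33.0 ± 11.6 and 57.7 ± 18.3 FPKM (mean ± SD, n = 3 each). Lgals9 and Lgals3bp had their highest level in DIF, at 13.1 ± 0.995 and 9.76 ± 0.616 FPKM, against 3.45 ± 0.571 and 1.33 ± 0.416 FPKM in TB. Lgals1 was among the 4 most abundant genes of every library, and Lgals8 held a middle level with overlapping values in each pair of groups. Lgals7 and Lgals4 were near the lower limit of what these libraries measure.

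**Figure D1:**
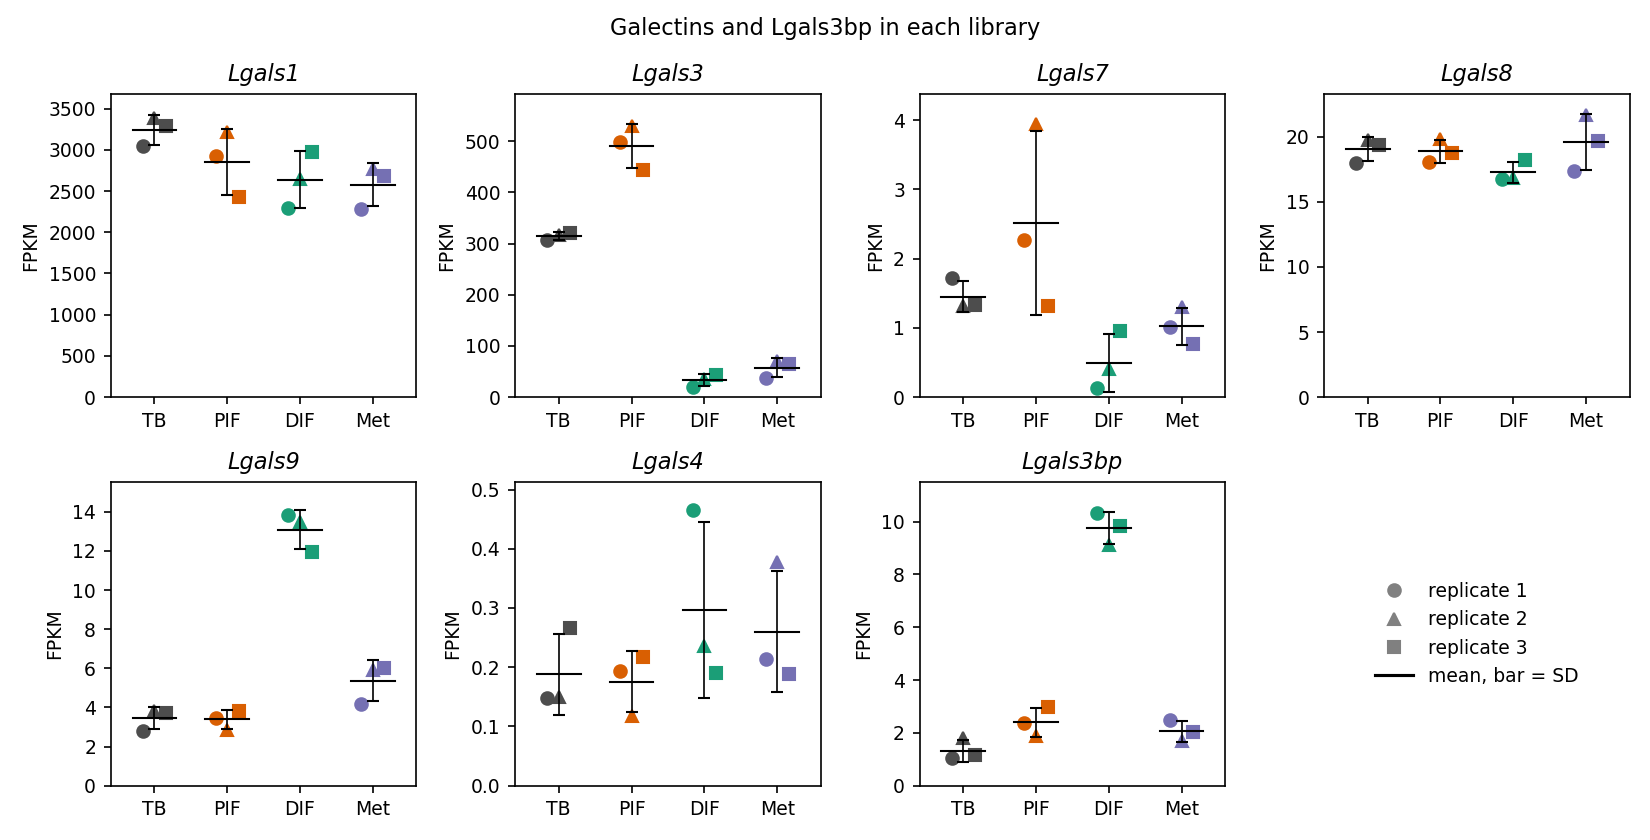
FPKM of the 7 genes in each library (vertical axes, linear and starting at 0, with a scale of its own in each panel) by group (horizontal axes); symbols give the replicate number, the long line is the mean of 3 libraries and the bar 1 SD. Lgals3 is low in DIF and Met, Lgals9 and Lgals3bp are high in DIF, and Lgals8 overlaps between all groups.

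Lgals1 encodes galectin 1, the prototype dimer. In the deposited coordinates it lies on chromosome 15 from 78810925 to 78814665, plus strand, with a gene length of 903 bases. Its level was 3044, 3387 and 3292 FPKM in TB, and 2925, 3217 and 2425 FPKM in PIF. It was 2291, 2648 and 2978 FPKM in DIF, and 2283, 2765 and 2688 FPKM in Met. All DIF and Met values lay below all TB values, while PIF overlapped each of the other groups. The means followed the order TB, PIF, DIF and Met, at 3241 ± 177, 2856 ± 401, 2639 ± 344 and 2579 ± 259 FPKM (SD, n = 3 each), and neighbours in that order overlapped. On log2(FPKM + 1), Lgals1 in DIF was below TB by 0.30 (difference -0.30, SE 0.12) and Met differed from TB by -0.33 (SE 0.12). With quantile normalization both differences came to -0.08, since Lgals1 took place 3 or 4 by abundance in each library.

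Lgals7 encodes galectin 7, a prototype galectin known from stratified epithelium. It lies on chromosome 7 from 28563278 to 28565709, plus strand. Lgals7 was at 1.72, 1.31 and 1.33 FPKM in TB, and at 2.27, 3.94 and 1.32 FPKM in PIF. It was at 0.129, 0.411 and 0.948 FPKM in DIF, and at 1.01, 1.30 and 0.765 FPKM in Met. DIF and Met lay below TB and below PIF without overlap, while DIF and Met overlapped each other, as did PIF and TB. The highest Met value, 1.30 FPKM, lay just below the lowest TB value, 1.31 FPKM. The values rest on few reads, with sums of 71, 122, 25 and 52 over the 3 libraries of TB, PIF, DIF and Met. DIF replicate 1 had 2 reads, whose exact 95% Poisson interval is 0.0157 to 0.467 FPKM and covers counting error only. The size of the difference depends on the constant added before taking logs: DIF minus TB was -0.75 (SE 0.25) with 1 added and -1.63 with 0.1 added. Keratinocyte defining markers were absent or near so, with Krt5 at 0 and Krt14 at most at 0.125 FPKM. The 11 genes of that list summed to 3.88 to 4.15 FPKM in TB and 3.44 to 3.94 in PIF. Their sums were 3.42 to 4.34 FPKM in DIF and 3.69 to 4.15 in Met. Most of each sum came from Krt10, at 2.02 to 3.31 FPKM per library, and Sfn, at 0.716 to 1.74 FPKM.

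Lgals3 encodes galectin 3, the chimera galectin, which is found in the cytosol, in the nucleus, at damaged lysosomes and outside the cell. It lies on chromosome 14 from 47605208 to 47623617, plus strand, with a gene length of 1858 bases. Its level was 307, 317 and 320 FPKM in TB, and 498, 530 and 444 FPKM in PIF. It was 20.2, 36.0 and 42.9 FPKM in DIF, and 36.8, 70.5 and 65.7 FPKM in Met. The 6 TB and PIF values all exceeded the 6 DIF and Met values, and every PIF value exceeded every TB value. DIF and Met overlapped each other, since Met replicate 1 lay between the DIF values.

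The mean of Lgals3 in DIF was 9.52-fold lower than in TB and 14.8-fold lower than in PIF, and in Met it was 5.46-fold and 8.50-fold lower. The lowest TB value was 7.15 times the highest DIF value, and the lowest PIF value was 6.30 times the highest Met value. On log2(FPKM + 1) the difference was 0.64 for PIF minus TB, -3.28 for DIF minus TB, -2.48 for Met minus TB and 0.80 for Met minus DIF (SE 0.26 each). By rank of abundance, Lgals3 was between place 69 and 83 in the PIF libraries, 150 and 155 in TB, 774 and 1506 in Met, and 1346 and 2626 in DIF. Even the lowest value, in DIF replicate 1, rested on 626 reads. The level of Lgals3 varied by 35.2% of its mean among the DIF libraries and by 2.27% among the TB libraries.

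**Figure D2:**
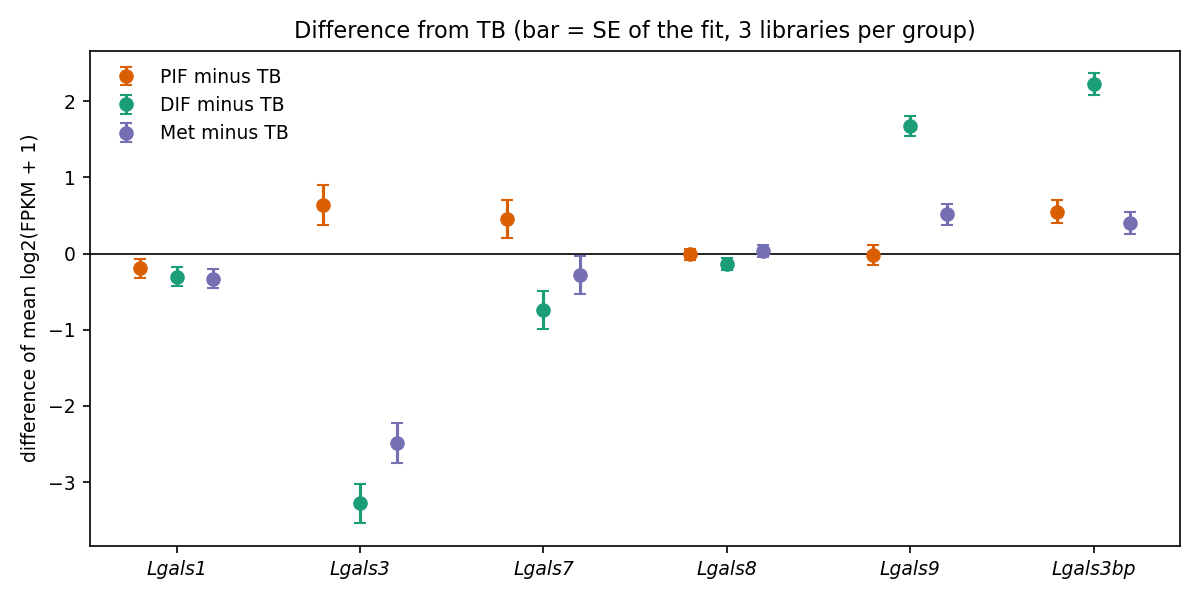
Difference of mean log2(FPKM + 1) from TB (vertical axis) for 6 of the genes (horizontal axis), with PIF, DIF and Met as separate points and bars of 1 SE from a fit with 3 libraries per group. Lgals3 lies at -3.28 in DIF and -2.48 in Met, while Lgals9 and Lgals3bp lie at 1.67 and 2.22 in DIF.

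Markers of other cells and of pigment cells are given here as values beside Lgals3. The 19 macrophage and leukocyte markers, cells that also make galectin 3, summed to 2.12 to 3.10 FPKM per TB library, 3.42 to 4.38 per PIF library, 1.18 to 1.88 per DIF library and 1.64 to 1.82 per Met library. Of these markers 8 were at 0 in all 12 libraries, and 1 reached a mean of 0.5 FPKM over the 12 libraries. That was Cd68, a lysosomal glycoprotein, at 1.34, 2.05, 0.770 and 0.943 FPKM in TB, PIF, DIF and Met. Laptm5 averaged 0.306, 0.951, 0.224 and 0.457 FPKM in the same order, and Cd14 0.196, 0.459, 0.260 and 0.200 FPKM. Csf1r reached 0.0286 FPKM at most, with higher means in DIF and Met than in TB and PIF. Among 12 melanocyte markers, the sum ran from 401 to 448 FPKM (TB), 477 to 532 (PIF), 291 to 341 (DIF) and 302 to 355 (Met). Gpnmb, a melanosome and lysosome glycoprotein, stood at 93.5 ± 3.44, 170 ± 25.3, 7.66 ± 1.03 and 6.57 ± 0.115 FPKM in TB, PIF, DIF and Met (SD, n = 3 each). Mitf, the melanocyte transcription factor, stood at 15.2 ± 0.622, 11.1 ± 2.41, 4.24 ± 1.17 and 4.25 ± 0.827 FPKM. Unlike that of Lgals3, the mean of Mitf was lower in PIF than in TB. Sox10 averaged 230 ± 28.3, 249 ± 26.3, 221 ± 18.0 and 217 ± 15.4 FPKM in the same order. S100b averaged 82.7 ± 9.17, 66.2 ± 7.87, 78.0 ± 7.89 and 93.8 ± 12.6 FPKM, lowest in PIF and highest in Met. The part of these genes in the Lgals3 result was not tested.

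The genes most like Lgals3 over the 12 libraries were sought among 10836 tested protein-coding genes by Pearson correlation of log2(FPKM + 1). The highest were Eps8 (r = 0.995), Cpe (0.985), Dnajb11 (0.984), Syngr1 (0.983) and Atp6v1c1 (0.978). Eps8, which encodes an actin-regulating adaptor of growth factor signalling, averaged 7.45 ± 0.277, 10.9 ± 0.678, 1.08 ± 0.250 and 2.05 ± 0.316 FPKM (TB, PIF, DIF and Met). The most opposed were Tspan18 (r = -0.989), Pdgfc (-0.983) and Dok1 (-0.983). Pdgfc, a platelet-derived growth factor chain, was at 1.14 ± 0.135, 0.824 ± 0.161, 5.69 ± 0.764 and 4.26 ± 0.0425 FPKM in TB, PIF, DIF and Met (SD, n = 3 each). These correlations describe the same 12 libraries in 4 groups and carry no p-value.

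Lgals8 encodes galectin 8, a tandem-repeat galectin that also binds sugars exposed on damaged vesicles. It lies on chromosome 13 from 12454296 to 12479825, minus strand, with a gene length of 3688 bases. Its level was 18.0, 19.8 and 19.3 FPKM in TB, and 18.1, 19.8 and 18.7 FPKM in PIF. It was 16.8, 16.8 and 18.2 FPKM in DIF, and 17.4, 21.7 and 19.7 FPKM in Met. All pairs of groups overlapped, and the means followed the order Met, TB, PIF and DIF, at 19.6 ± 2.16, 19.0 ± 0.918, 18.9 ± 0.887 and 17.2 ± 0.805 FPKM. The span of Lgals8 overlaps Heatr1 on the opposite strand, which stood at 6.77 to 7.29 FPKM by group mean. No strand setting of the read counting is given in the sources used here, so reads from the overlap cannot be told apart.

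Lgals9 encodes galectin 9, a tandem-repeat galectin known as a ligand of the immune receptor TIM-3 and as an interferon-induced gene. It lies on chromosome 11 from 78853800 to 78875772, minus strand, with a gene length of 2137 bases. Its level was 2.79, 3.84 and 3.71 FPKM in TB, and 3.46, 2.86 and 3.83 FPKM in PIF. It was 13.8, 13.5 and 11.96 FPKM in DIF, and 4.17, 5.93 and 6.02 FPKM in Met. The 3 DIF values exceeded all others, and the Met values exceeded all TB and PIF values, which overlapped each other. The lowest Met value, 4.17 FPKM from 162 reads, lay little above the highest TB value, 3.84 FPKM from 142 reads. The mean in DIF was 3.80 times that in TB and 2.44 times that in Met, and the mean in Met was 1.56 times that in TB. On log2(FPKM + 1), DIF minus TB was 1.67 and Met minus DIF was -1.16 (SE 0.13 each).

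Lgals4 encodes galectin 4, a tandem-repeat galectin known from the gut epithelium, of which some mouse strains carry a close copy, Lgals6, so that its reads may be shared. It lies on chromosome 7 from 28533279 to 28541133, plus strand. Lgals4 was not tested, because its mean of 0.230 FPKM was under the minimum of 0.5. Its values ran from 0.118 to 0.466 FPKM, from 5 to 18 reads per library, and all groups overlapped. With so few reads, the values do not show whether the groups differ.

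Lgals3bp lies on chromosome 11 from 118283577 to 118292918, minus strand, with a gene length of 2847 bases. Its level was 1.04, 1.81 and 1.14 FPKM in TB, and 2.37, 1.88 and 2.97 FPKM in PIF. It was 10.3, 9.12 and 9.82 FPKM in DIF, and 2.47, 1.69 and 2.03 FPKM in Met. The DIF values exceeded all others, the PIF values lay above TB, and Met overlapped both PIF and TB. The lowest PIF value, 1.88 FPKM from 98 reads, lay just above the highest TB value, 1.81 FPKM from 89 reads. The mean in DIF was 7.34 times that in TB, 4.05 times that in PIF and 4.73 times that in Met. On log2(FPKM + 1), DIF minus TB was 2.22 and Met minus DIF was -1.82 (SE 0.14 each). The added constant shortens this difference, which was 2.82 with 0.1 added. The 10 fibroblast markers summed to 10.6 to 11.4 FPKM per TB library, 5.56 to 9.01 per PIF library, 10.9 to 15.2 per DIF library and 7.68 to 9.68 per Met library. Col3a1 made up most of that sum, at means of 10.6, 6.86, 12.3 and 7.09 FPKM in TB, PIF, DIF and Met. Col1a1 was at 0.0981, 0.0637, 0.468 and 0.865 FPKM in the same order, highest in Met, and Pdgfra at 0.181, 0.384, 0.159 and 0.207 FPKM, highest in PIF. The part of these markers in the Lgals9 and Lgals3bp results was not tested.

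Lgals9 and Lgals3bp were highest in the same 3 libraries, with r = 0.91 over the 12 libraries on log2(FPKM + 1), and Lgals3 ran against them, with r = -0.84 to Lgals9 and -0.69 to Lgals3bp. Promoter windows of these 3 genes are therefore shown. Each holds 250 bases before and 50 after the annotated start, from RefSeq on build GRCm38.p6, and its coordinates are not to be set beside the deposited gene coordinates. Windows were found for 6 of the 7 genes, with none for Lgals1. The windows lie at chr11:78984875-78985174, minus strand, for Lgals9, at chr11:118401910-118402209, minus strand, for Lgals3bp, and at chr14:47373610-47373909, plus strand, for Lgals3. Both strands were searched for CACGTG and CATGTG (E-box letters), TGANTCA (AP-1), TTCNNNGAA (letters of STAT dimers) and for GAAA followed after any 2 bases by GAAA (letters of interferon-stimulated response elements, added after the windows had been seen), and capitals mark the matches.
Lgals9: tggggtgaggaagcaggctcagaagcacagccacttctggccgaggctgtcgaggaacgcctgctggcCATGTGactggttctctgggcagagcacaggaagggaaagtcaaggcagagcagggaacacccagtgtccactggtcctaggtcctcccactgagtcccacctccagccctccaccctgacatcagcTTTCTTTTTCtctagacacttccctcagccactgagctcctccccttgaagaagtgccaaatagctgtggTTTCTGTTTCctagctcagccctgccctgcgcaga
Lgals3bp: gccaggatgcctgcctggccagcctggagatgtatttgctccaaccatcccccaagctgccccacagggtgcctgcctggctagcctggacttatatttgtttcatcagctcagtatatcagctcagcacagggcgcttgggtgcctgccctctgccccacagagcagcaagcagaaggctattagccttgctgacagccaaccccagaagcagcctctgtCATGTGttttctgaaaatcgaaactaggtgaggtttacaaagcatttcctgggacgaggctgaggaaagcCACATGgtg
Lgals3: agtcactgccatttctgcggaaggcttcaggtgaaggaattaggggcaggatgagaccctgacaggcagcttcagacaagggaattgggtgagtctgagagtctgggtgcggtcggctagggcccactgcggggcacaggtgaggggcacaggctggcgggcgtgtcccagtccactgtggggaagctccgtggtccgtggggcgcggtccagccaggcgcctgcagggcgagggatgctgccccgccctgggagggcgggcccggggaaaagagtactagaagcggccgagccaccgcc

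The Lgals9 window held CATGTG at bases -182 to -177 from the start and the spaced GAAA repeat on the other strand at bases -55 to -46 and 16 to 25. The Lgals3bp window held CATGTG at bases -29 to -24 and, on the other strand, at 42 to 47. It also reads gaaaatcgaaact, which is close to the spaced GAAA repeat but no exact match. Only exact matches were counted, and near matches were not searched for in any window. The Lgals3 window held none of the 5 motifs and had a GC content of 67.0%, against 58.0% for Lgals9 and 55.0% for Lgals3bp. Of 32851 windows of the same length, 14.2% held CATGTG, 7.15% CACGTG, 7.81% TGANTCA, 8.30% TTCNNNGAA and 3.44% the spaced GAAA repeat. A match describes letters in the window and is no sign of a bound factor.

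By the same measure of likeness, the genes closest to Lgals9 were Matn2 (r = 0.963), Masp1 (0.957), Parp12 (0.952), Gzme (0.952) and Gzmd (0.945). Those closest to Lgals3bp were Parp10 (r = 0.954), Gzme (0.934), Inava (0.928), Rnf146 (0.924) and Parp12 (0.921). Parp12, an interferon-induced ADP-ribosyltransferase, stands in both lists, with 2.09 ± 0.298, 2.13 ± 0.423, 5.73 ± 0.112 and 2.65 ± 0.356 FPKM from TB through PIF and DIF to Met (SD, n = 3 each). Gzme, a granzyme gene with closely related neighbours that could share its reads, was at 0.0210 ± 0.0364, 0.157 ± 0.177, 3.07 ± 1.21 and 0.298 ± 0.102 FPKM in the same order. Among the most opposed to Lgals9 were Cdkl2 (r = -0.946) and Scg2 (-0.941), and the most opposed to Lgals3bp were Rnf128 (r = -0.935), Cav2 (-0.907) and Rab3b (-0.900).

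Lgals1 was most like Cinp (r = 0.954), Hint1 (0.946), Pdcd5 (0.941), Elob (0.935) and Tmsb10 (0.935), and most opposed to Smad3 (-0.953), Susd6 (-0.952) and Zc3h4 (-0.951). Lgals7 was most like Sh3kbp1 (r = 0.966), and Lgals8, whose groups overlapped, was most like Sar1b (r = 0.920).

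The makeup of the galectin RNA was described as each gene's share of the FPKM summed over 10 protein-coding galectin genes, without Lgals3bp, which is no galectin. Lgals3 made up 14.6 ± 0.670% of the sum in PIF and 8.78 ± 0.294% in TB, but 2.13 ± 0.489% in Met and 1.20 ± 0.293% in DIF (SD, n = 3 each). Lgals1 made up the bulk, 84.5 ± 0.785%, 90.3 ± 0.295%, 96.6 ± 0.417% and 97.4 ± 0.0841% in the same order. The Lgals9 share was 0.491 ± 0.0989% in DIF, against 0.0957 ± 0.0114% in TB, 0.103 ± 0.0283% in PIF and 0.200 ± 0.0202% in Met. The sum itself was highest in TB at 3588 ± 185 FPKM, followed by PIF at 3376 ± 444, DIF at 2710 ± 354 and Met at 2670 ± 279 FPKM. Of the 6 other genes with a galectin symbol, Lgalsl, which encodes galectin-related protein, had 6.74, 3.73, 6.12 and 6.11 FPKM and Lgals2 1.35, 0.567, 1.08 and 1.51 FPKM in TB, PIF, DIF and Met.

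**Figure D3:**
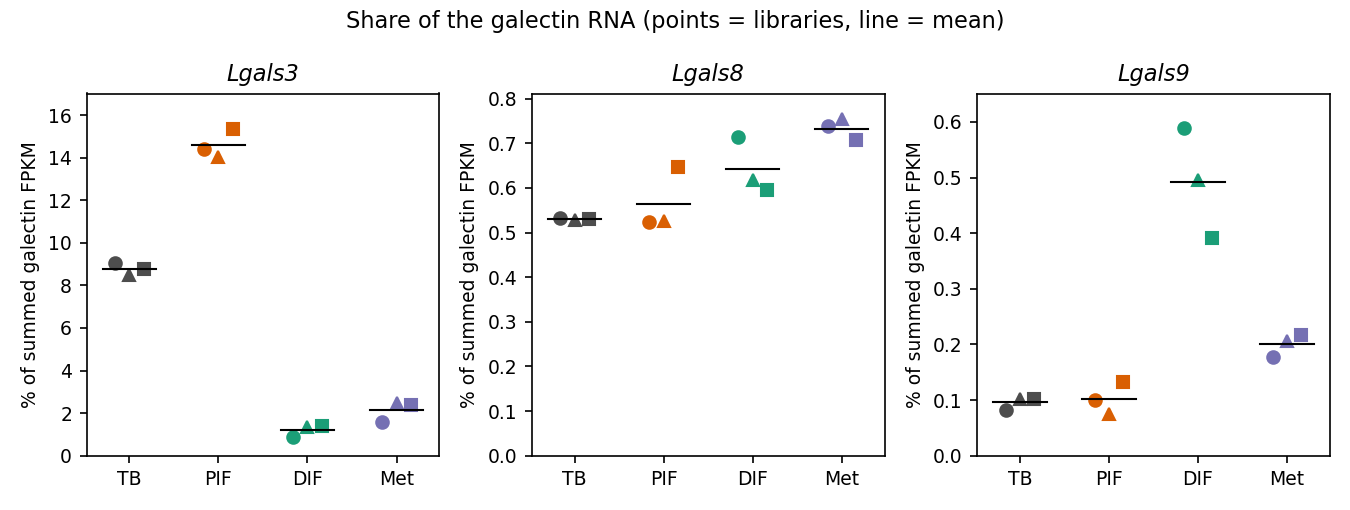
Share of Lgals3, Lgals8 and Lgals9 in the FPKM summed over 10 galectin genes, in percent (vertical axes, starting at 0, with a scale of its own in each panel), by group (horizontal axes); points are libraries and lines the mean of 3. The Lgals3 share is 14.6% in PIF and 1.20% in DIF, and the Lgals9 share is highest in DIF.

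Values of 2 groups that did not overlap were counted over the 6 members tested and over all 12661 tested genes. The members were chosen on these values, so nothing is read from their counts. Between PIF and TB, 2 members had higher values without overlap, Lgals3 and Lgals3bp, where 30.7% of all tested genes did not overlap. Between DIF and TB, 2 were higher and 3 lower, with 29.2% of all tested genes not overlapping. Between Met and TB, 1 was higher and 3 were lower, with 33.1% of all tested genes. Between DIF and PIF, 2 were higher and 2 lower, with 31.8% of all tested genes. Between Met and PIF, 1 was higher and 2 were lower, with 32.2% of all tested genes. Between Met and DIF, Lgals9 and Lgals3bp were lower in Met and none was higher, with 22.9% of all tested genes. The comparisons with TB share the TB libraries, and likewise for the other groups.

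Partners of the galectins were taken from 8 lists of 220 genes, of which 158 were tested with limma on log2(FPKM + 1) with Benjamini-Hochberg adjustment over all tested genes. Differences among the 4 groups passed for 63 of the 158, or 39.9%, against 24.8% of all tested genes. The lists were made with earlier results of these data known, so the larger share is not independent evidence. In DIF against TB 19 partner genes rose and 6 fell, where 4.26% of all tested genes rose and 4.36% fell. In PIF against TB 30 rose and 10 fell (7.52% and 6.58% of all), and in Met against TB 21 rose and 4 fell (5.32% and 4.63%). In DIF against PIF 25 rose and 22 fell (9.03% and 9.85%), in Met against PIF 20 rose and 26 fell (8.85% and 8.80%), and in Met against DIF 8 rose and 8 fell (2.36% and 1.50%). The counts depended on single libraries: PIF against TB gave 24 without TB replicate 2 and 22 without TB replicate 3, and DIF against TB gave 15 without TB replicate 2, TB replicate 3 or DIF replicate 2. Met against TB gave 14 without TB replicate 3, and Met against DIF gave 10 without DIF replicate 1 or Met replicate 3.

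Among interferon response genes, 7 were higher in DIF, the group in which Lgals9 and Lgals3bp were highest. The list was made with this result known and is not independent evidence. Of 16 tested, these 7 rose and none fell in DIF against TB, with a median log2 difference of 0.32 against 0.00 over all tested genes. The count was 4 without TB replicate 1 or TB replicate 2. In Met against DIF 6 fell and none rose, with a median of -0.38, and in Met against TB none rose and 1 fell. Bst2, which encodes tetherin, rose from 18.5 ± 2.69 FPKM in TB to 39.1 ± 1.10 in DIF (log2 difference 1.05, SE 0.14, limma adjusted p = 0.00064). Isg15, a ubiquitin-like protein, rose from 5.24 ± 1.05 to 11.6 ± 1.81 FPKM (1.02, SE 0.17, limma adjusted p = 0.0036), and was at 3.22 ± 0.654 FPKM in Met. Irf9 and Xaf1 also rose in DIF, with limma adjusted p of 0.0054 and 0.0091. These 4 calls held under each of the 20 alternatives in which the gene was tested. The spread from the compared groups only is not among them and was not checked gene by gene.

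**Figure D4:**
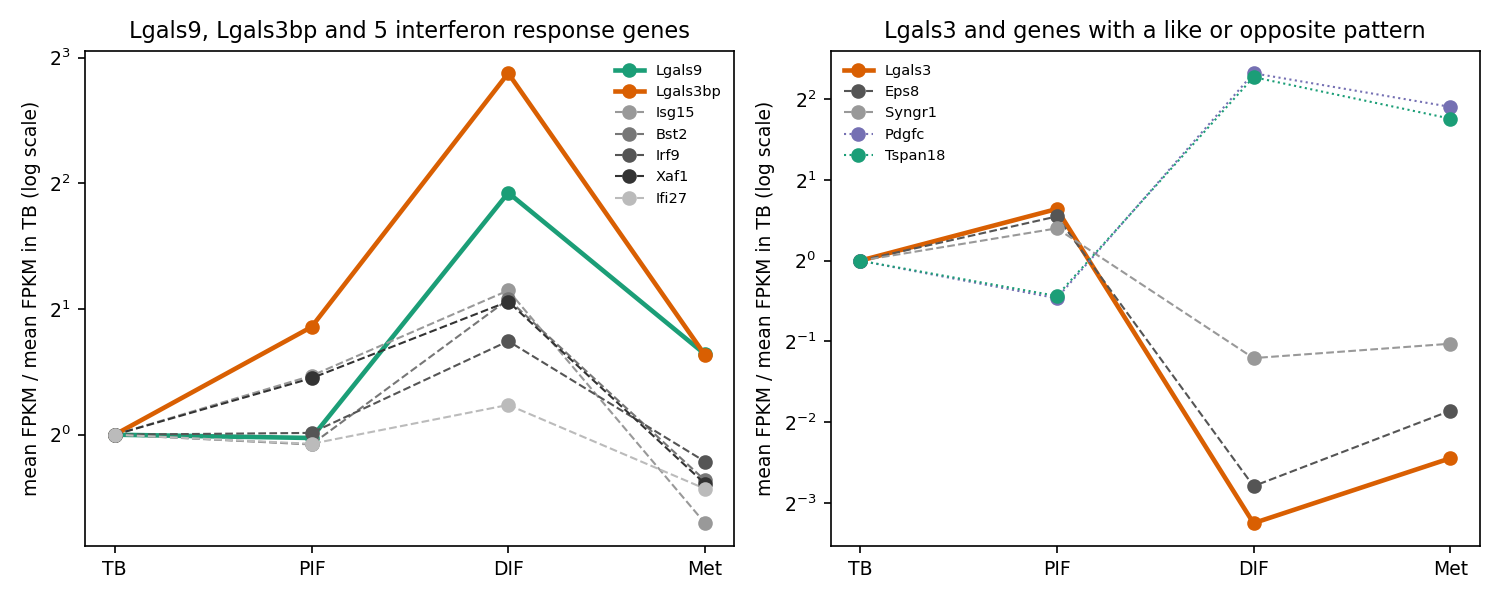
Mean FPKM of each group divided by the mean in TB (vertical axes, log scale, means of 3 libraries without error bars) over the 4 groups (horizontal axes, joined for reading only). The left panel sets Lgals9 and Lgals3bp beside 5 interferon response genes. These were picked from the 7 of 16 tested that were called higher in DIF against TB, so their rise in DIF follows from the choice. The right panel sets Lgals3 beside Eps8, Syngr1, Pdgfc and Tspan18, which were picked for a like or opposite pattern.

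Matrix glycoproteins that galectins bind were more often higher than lower in DIF and Met. Of 20 tested, 7 rose and 1 fell in DIF against TB (median 0.46), and 7 rose and none fell in Met against TB (median 0.51). The Met count was 4 without TB replicate 1 or Met replicate 3 and 3 without TB replicate 2, TB replicate 3 or Met replicate 1. Without DIF replicate 2, 5 rose and 1 fell in DIF against TB. In PIF against TB 1 rose and 2 fell (median 0.23), but 9 rose and 1 fell without PIF replicate 2. Col4a1, a basement membrane collagen chain, rose from 0.845 ± 0.126 FPKM in TB to 7.80 ± 1.86 in DIF and 3.29 ± 0.749 in Met (limma adjusted p = 1.1e-05 and 0.00095). Spp1, which encodes osteopontin, rose from 381 ± 30.0 FPKM in TB to 1092 ± 211 in DIF (limma adjusted p = 5.1e-05). It also passed in PIF against TB and in Met against TB (limma adjusted p = 0.0024 and 2.1e-05). Eln, which encodes elastin, fell from 5.20 ± 0.498 to 2.17 ± 0.342 FPKM in DIF (limma adjusted p = 0.0030). It also passed in PIF against TB (limma adjusted p = 0.00039).

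Genes that build, trim or cap sugar chains were tested in 3 lists, whose calls in PIF against TB were mostly higher. Of 22 genes of N-glycan trimming, branching and extension, 7 rose and none fell in PIF against TB (median 0.17). The 7 were Man1a, Man1c1, Man2a1, Mgat5, B4galt1, B4galt5 and B4galt6. That comparison gave 4 calls without TB replicate 2, TB replicate 3 or PIF replicate 1. In DIF against TB none of the list was called. Of 11 O-glycan core enzymes, 4 rose and none fell in PIF against TB, with 1 call without TB replicate 3 and 2 without PIF replicate 1, while the median of the list was -0.09, opposite in sign to the calls. Of 15 genes for adding or removing sialic acid, which can mask galactose, 4 rose and 1 fell in PIF against TB (median 0.09). That list had 2 calls without TB replicate 1, TB replicate 2, TB replicate 3 or PIF replicate 2, and 3 without PIF replicate 1, DIF replicate 2 or Met replicate 2. C1galt1, which makes the core 1 O-glycan, rose from 15.3 ± 0.835 FPKM in TB to 23.7 ± 0.865 in PIF (limma adjusted p = 9.7e-05) and fell to 11.9 ± 0.525 in DIF (limma adjusted p = 0.0040).

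Of 31 surface glycoproteins, 7 rose and 5 fell in PIF against TB (median 0.05, and 7 calls without TB replicate 2 or TB replicate 3). In DIF against TB 3 rose and 3 fell, with 3 calls without TB replicate 2 and 2 without TB replicate 3 or DIF replicate 2. In Met against TB 7 rose and 1 fell (median 0.17), and 5 to 9 rose when a library was left out. Alcam, a cell adhesion molecule, was at 6.21 ± 0.429 FPKM in TB, 13.2 ± 1.77 in PIF and 3.65 ± 0.648 in DIF, and passed in both comparisons with TB (limma adjusted p = 0.00055 and 0.0078). Of 27 genes of the lysosomal membrane and its damage response, 4 rose and none fell in PIF against TB (median 0.01, and 2 calls without TB replicate 3 or PIF replicate 1). Sqstm1, an autophagy adaptor, rose from 286 ± 7.82 to 387 ± 6.73 FPKM in PIF (limma adjusted p = 0.00042). Of 16 cytosolic and nuclear partners, 2 rose and 1 fell in PIF against TB (median -0.03).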

How the data were processed

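RNA of 12 libraries of 4599 melanoma cells, 3 in each of 4 groups, was sequenced as paired reads of 150 bases. Per the submitters' processing notes, reads passed fastp, HISAT2 2.0.5 and featureCounts 1.5.0-p3. No build, annotation or strand setting is given in the sources used here. All 7 gene IDs stood on the same chromosome in GENCODE M21 on GRCm38, but none had the same start and end, so coordinates are as deposited. The values are FPKM that the authors computed and deposited. Within a library, the product of FPKM and gene length rose in even steps for 100% of values (tolerance 0.001), from which the reads behind each value were rebuilt. Median ratios of the FPKM were equal between libraries, as values scaled to a common median would be, a step that no label records.

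With limma 3.58.1 (R 4.3.3), a linear model was fitted on log2(FPKM + 1) for the 12661 of 56748 genes with a mean of at least 0.5 FPKM. The fit had 4 group means, an intensity trend and 8 residual degrees of freedom, and its spread was shared by all groups. Tests were two-sided, with Benjamini-Hochberg adjustment within each comparison and a threshold of 0.05. The fit was also run on simulated reads of a fixed spread, which does not measure its error rate in these data. Differences of log2(FPKM + 1) understate the change of low genes. For the members the fit gave sizes and SEs only. The members, the gene lists and the tests were chosen with earlier results of these data known, among them higher interferon response genes in DIF. Named genes were the members, other genes with a galectin symbol, the 5 most like and 3 most opposed genes of each tested member, up to 4 called genes with the smallest p per list and comparison, and cell type markers. From these the text names a part. St6galnac2 stands in the table as 2 rows, and both were kept. Alternatives changed the added constant, the filter, the scaling, the trend, the spread, the model (voom on the rebuilt reads), a replicate block and each library in turn. RefSeq promoter windows were matched by symbol. Protein sequences were not used here.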

Additional observations from a re-analysis of the deposited data

How the results depend on the processing

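Lgals3, Lgals9 in DIF and Met, and Lgals3bp in DIF kept their direction against TB under all 20 alternatives: Lgals3 ranged from -3.49 to -2.97 in DIF and from 0.58 to 0.72 in PIF, Lgals9 from 1.56 to 1.93 in DIF and Lgals3bp from 2.13 to 2.91 in DIF (log2). Of 714 recomputed member differences, 24 moved by more than the spread between replicates, all with 0.1 added, with voom or, for Lgals1, with quantile normalization. The sign was not stable for Lgals8 in 3 pairs, Lgals9 in PIF against TB and Lgals1 in Met against DIF. Lgals7 has no value with a minimum of 2 FPKM.

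With the spread taken from the compared groups only, calls over all genes came to 1132 (main 1785) in PIF against TB, 1497 (main 2390) in DIF against PIF and 300 (main 489) in Met against DIF, and partner calls to 25 (main 40) in PIF against TB. With 1 library left out, calls over all genes ranged from 958 to 1843 in PIF against TB, 589 to 1264 in DIF against TB, 793 to 1467 in Met against TB and 234 to 595 in Met against DIF. Partner calls ranged from 22 to 44, 15 to 32, 14 to 32 and 10 to 18 in the same comparisons. The lowest counts followed the removal of TB replicate 2, TB replicate 3, DIF replicate 1, DIF replicate 2 or Met replicate 3, and the cause was not tested. The other comparisons and settings stayed within 1.5 times.

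Replicate numbers were not taken as pairs, since the correlation of same-numbered deviations ran from -0.20 to 0.33 and was over 0.1 for 5 of 18. With the replicate block, calls were 1901, 1226, 1317, 2562, 2342 and 537 over all genes, and 39, 30, 28, 51, 51 and 15 over the partners (PIF, DIF and Met against TB, DIF and Met against PIF, Met against DIF), and 3323 and 71 among the 4 groups. Of 36 library and group combinations, 18 correlated best with their own number. The median correlation was 0.050 for the same number and -0.034 for different numbers, so a weak pairing is not excluded. Depth limits Lgals4 and Lgals7, which had 5 to 18 and 2 to 67 reads per library.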
